A study of Homo sapiens with 12 samples.

Results

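The p53 target genes described here are 32 genes listed as targets of the tumour suppressor p53, out of 57820 gene entries in each library. Among them are regulators of p53 itself, genes of apoptosis, growth restrainers, repair genes and metabolic genes. Whether p53 induces each of them in these cells was not tested. They were picked by name, with earlier results of these data known, and matched by symbol in HCC95 and by the same Ensembl ID in BICR31. RNA sequencing of polyadenylated RNA was analysed from 12 libraries of 2 human squamous carcinoma cell lines. BICR31, a head and neck line, carried siKLF5, a small interfering RNA that silences the transcription factor KLF5, or the control siNC (3 libraries each, lettered A, B and C). HCC95, a lung line, overexpressed the KLF5 mutant E419Q or KLF5 WT, or held an empty vector (2 libraries each, lettered A and B). E419Q replaces a glutamate with a glutamine in the zinc finger region with which KLF5 binds DNA. The sources used here do not give the siRNA sequence, the vector, the time of harvest or whether each library is its own culture, and the p-values cover no more than the spread between these libraries.

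In unstressed cells MDM2 and MDM4 keep p53 inactive, and stress such as DNA damage frees it to bind response elements and switch on its targets. Some targets feed back on p53, some halt the cell cycle or start apoptosis, and others repair DNA or restrain growth and oxidative stress. KLF5 belongs to the KLF/SP family, which binds GC-rich boxes, and promotes growth in many epithelia. Squamous cells also express TP63, whose protein p63 is a p53 relative that recognises closely similar sequences.

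KLF5 itself was checked first. BICR31 levels are given in units of the deposited normalised signal, and HCC95 levels as CPM, the count over the library total scaled to 1000000. KLF5 measured 986, 1008 and 882 units in siKLF5 libraries A, B and C, against 2682, 2289 and 2620 units in siNC libraries. In HCC95 it measured 427 and 442 CPM with E419Q, 420 and 404 CPM with WT, and 150 and 136 CPM with the empty vector. The levels matched the labels of silencing and overexpression in every library. Gene-level values do not show the E419Q change, so they cannot tell E419Q libraries from WT libraries. Library totals were 2150775 to 2296187 estimated counts for siKLF5 and 1922356 to 1934365 for siNC. In HCC95 they were 3074139 to 3364760 counts for E419Q, 3516984 to 3992553 for WT and 3455397 to 4643792 for the empty vector, so members at a few CPM rest on few counts. All 8 squamous markers checked, KRT5 and TP63 among them, were detected in every group. Their sum was 61700 to 63800 units with siKLF5 and 97600 to 100000 units with siNC. In HCC95 it was 13500 to 14300 CPM with E419Q, 19500 to 20100 CPM with WT and 16500 to 17100 CPM with the empty vector. KRT5 made up most of each sum, and single markers did not all follow it. At a limma adjusted p below 0.05, 1 marker was higher and 6 lower with siKLF5. At an edgeR adjusted p below 0.05, 7 were higher and 1 lower with WT, and 5 higher and 3 lower with E419Q. Of all genes, 26.1%, 22.9% and 21.2% were called in these 3 comparisons. Summed fibroblast markers were 1900 to 2210 units with siKLF5 and 864 to 948 units with siNC, and DCN and LUM were at 0 with siKLF5. Immune markers summed to 842 to 897 units with siKLF5 and 434 to 525 units with siNC, with CD3E at 0 in all groups. Simple epithelial markers summed to 57400 to 59100 units with siKLF5 and 92000 to 98800 units with siNC. In HCC95 the same simple epithelial sum was 3270 to 3430 CPM with E419Q, 2080 to 2270 CPM with WT and 1700 to 1790 CPM with the empty vector. Summed endothelial markers were 268 to 427 units with siKLF5 and 164 to 246 units with siNC. In HCC95 the fibroblast, endothelial and immune sums were at most 17.5, 28.5 and 65.9 CPM in any library. The part of these genes in the results was not tested, and in bulk RNA fewer cells of a kind and less RNA per cell cannot be told apart.

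Of the p53 relatives, TP63 changed in every comparison. TP63 fell to 1265 ± 98.5 units with siKLF5, against 2228 ± 115 units with siNC (SD, n = 3 each; log2 fold change -0.82, limma adjusted p = 2.09e-06). It rose with KLF5 WT, to 729.8 CPM against 368 CPM with the empty vector (log2 fold change 0.98, edgeR adjusted p = 5.83e-10). With E419Q the rise of TP63 was smaller (log2 fold change 0.45, edgeR adjusted p = 4.37e-05), and the direct test of E419Q against WT gave -0.53 (edgeR adjusted p = 7.99e-06). TP73, another family member, rose with WT (log2 fold change 0.37, edgeR adjusted p = 0.0169) and had values of 0.17 with E419Q (edgeR adjusted p = 0.324) and -0.13 with siKLF5 (limma adjusted p = 0.61).

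RefSeq promoter windows on GRCh38.p14, 250 bases before to 50 bases after each start, were at hand for 26 of the members, in 39 windows. The windows were searched on both strands for the KLF box CCNCNCCC, for the GC box GGGCGG, which can overlap it, and for the degenerate decamer of which a p53 response element holds a pair. The KLF box occurred in 23 members (88.5%), against 58.9% of 27305 genes with windows. The GC box occurred in 22 members (84.6%), against 48.3% of genes. The p53 decamer occurred in 6 members (23.1%), against 8.06% of genes: PLK2, SESN1, FAS, DDB2, AEN and FDXR. A gene was counted if any of its windows held a match. The members had 39 windows for 26 genes and the background 35116 windows for 27305 genes. The background was not limited to expressed genes or matched for GC content, so the shares are not like for like. A match is a run of letters, and binding was not measured here. The windows below belong to members whose changes recur through the results, with p53 decamers in capitals for DDB2 (chr11:47214724-47215023, plus strand), PLK2 (chr5:58460037-58460336, minus strand) and AEN (chr15:88621090-88621389, plus strand).
DDB2: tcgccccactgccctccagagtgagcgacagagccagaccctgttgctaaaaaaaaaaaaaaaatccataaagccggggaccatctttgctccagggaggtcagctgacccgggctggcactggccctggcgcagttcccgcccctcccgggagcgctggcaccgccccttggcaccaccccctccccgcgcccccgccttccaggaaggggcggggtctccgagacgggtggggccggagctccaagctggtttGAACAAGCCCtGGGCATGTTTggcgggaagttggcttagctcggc
PLK2: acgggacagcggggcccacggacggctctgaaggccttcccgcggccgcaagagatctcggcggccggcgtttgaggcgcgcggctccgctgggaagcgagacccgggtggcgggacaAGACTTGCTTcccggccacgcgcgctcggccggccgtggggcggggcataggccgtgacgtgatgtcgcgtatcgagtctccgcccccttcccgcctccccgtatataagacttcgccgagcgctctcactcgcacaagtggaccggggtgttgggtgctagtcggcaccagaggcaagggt
AEN: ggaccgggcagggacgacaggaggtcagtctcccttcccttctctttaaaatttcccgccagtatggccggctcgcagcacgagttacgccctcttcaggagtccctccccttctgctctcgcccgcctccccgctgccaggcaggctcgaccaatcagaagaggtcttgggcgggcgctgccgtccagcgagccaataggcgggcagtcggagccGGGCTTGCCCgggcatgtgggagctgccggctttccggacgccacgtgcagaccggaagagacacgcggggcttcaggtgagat
In DDB2 the 2 decamers begin 6 and 17 bases into the transcript, separated by a lone base. In PLK2 the decamer begins at -132 from the start, and in AEN at -34. The CCNG2 window (chr4:77156957-77157256, plus strand) is shown with its overlapping KLF boxes, at -24 and -22, in capitals.
CCNG2: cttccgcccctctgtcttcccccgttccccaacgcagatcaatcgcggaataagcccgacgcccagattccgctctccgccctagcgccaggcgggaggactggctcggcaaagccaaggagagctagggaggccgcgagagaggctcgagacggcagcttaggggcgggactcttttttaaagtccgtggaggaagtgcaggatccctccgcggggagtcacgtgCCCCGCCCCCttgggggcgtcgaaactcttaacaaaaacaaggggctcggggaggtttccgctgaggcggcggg

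The control levels of the members, compared per length, were ordered much alike in the 2 lines. BAX, PHLDA3, BCL2L1 and PLK2 led in HCC95 with the empty vector, at 141, 117, 105 and 102 TPM, the length-corrected unit written by RSEM. PLK2, BCL2L1, BAX and PHLDA3 led in BICR31 with siNC, at 204, 154, 131 and 81.0 on the length-scaled signal. Spearman's rho between these levels was 0.772 over the 32 members, a description over genes and not over replicates. TP53I3, a quinone oxidoreductase also called PIG3, stood 7th in BICR31 and 31st in HCC95. FDXR, a mitochondrial reductase, stood 22nd in BICR31 and 6th in HCC95. EDA2R, a receptor for ectodysplasin A2, was at 0 in every BICR31 library and at 0.976 CPM or less in HCC95, and was not tested in either line. TP53I3 stayed between 0.501 and 1.95 CPM in HCC95 and was tested in BICR31 only.

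With siKLF5, 10 of the 31 members tested rose and 4 fell, at a limma adjusted p below 0.05 over 15710 genes. Of all genes tested, 26.1% were called, 15.3% higher and 10.8% lower, and of the members 45.2% were called. The genes tested reach down to an average of 10 units, where a count is worth 7.87 to 9.12 units. These shares were not matched for level. The median log2 fold change was 0.28 over the members and 0.04 over all genes. Rescaling the signal by quantiles left the members at 10 higher and 4 lower, while the share of higher calls among all calls was 48.5% with it and 58.7% without. The risers were MDM2, which feeds back on p53, the death genes BBC3, PMAIP1 and TNFRSF10B, the growth restrainers TP53INP1, CCNG2, PLK3 and PLK2, and SESN1 and SESN2, and the members that fell were RRM2B, DDB2, PHLDA3 and AEN.

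Of the 4 members that feed back on p53, MDM2 was called in BICR31 and the other 3 were not. MDM2, the ubiquitin ligase that degrades p53, measured 1668, 1640 and 1645 units with siKLF5, against 1335, 1245 and 1065 units with siNC. It rose 1.36-fold (log2 fold change 0.45 ± 0.0963 SE, limma adjusted p = 0.00209), and the groups did not overlap. Its partner MDM4, the phosphatase gene PPM1D and the cyclin gene CCNG1 had log2 fold changes of -0.11, 0.18 and 0.28 and were not called. CCNG1 passed when siKLF5 library C was left out (log2 fold change 0.41, limma adjusted p = 0.0439).

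Of the 6 mitochondrial apoptosis genes, 2 rose with siKLF5 and 1 fell. BBC3, which encodes the death activator PUMA, measured 263, 217 and 181 units with siKLF5, against 18.2, 72.9 and 99.4 units with siNC. The siNC libraries spread widely, on 2, 8 and 11 estimated counts, yet the groups did not overlap. The fitted rise of BBC3 was 4.19-fold (log2 fold change 2.07 ± 0.48 SE, limma adjusted p = 0.00383), and the ratio of the group means was 3.47. PMAIP1, which encodes the death activator NOXA, measured 493, 500 and 543 units with siKLF5, against 264, 310 and 343 units with siNC. All 3 siKLF5 libraries lay above all 3 siNC libraries, a rise of 1.68-fold (log2 fold change 0.75 ± 0.163 SE, limma adjusted p = 0.00226). AEN, an apoptosis-enhancing nuclease, fell to 800.4 units with siKLF5, against 1057 units with siNC (log2 fold change -0.40 ± 0.113 SE, limma adjusted p = 0.0135). The fall of AEN missed the threshold without siKLF5 library A (limma adjusted p = 0.0685) and without siNC library B (limma adjusted p = 0.0654). BAX, which opens the pore in the mitochondrial membrane, had a fold change of 1.03 (95% interval 0.885 to 1.21). TRIAP1, an inhibitor of apoptosis, and BCL2L1, which encodes the anti-apoptotic protein BCL-XL, had log2 fold changes of 0.05 and 0.15 and were not called.

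Of the death receptors, TNFRSF10B rose. This receptor for the death ligand TRAIL measured 1643, 1667 and 1606 units with siKLF5, against 1082, 1267 and 921 units with siNC. The rise was 1.51-fold (log2 fold change 0.60 ± 0.108 SE, limma adjusted p = 0.000483), with the siKLF5 libraries close together and the siNC libraries spread. TNFRSF10A, the other such receptor on the list, had a log2 fold change of 0.44 and a limma adjusted p of 0.0523. It passed with a pseudocount of 10 (limma adjusted p = 0.0499) and without siNC library A (limma adjusted p = 0.0269). FAS had a log2 fold change of -0.23 and was not called.

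Growth restrainers held the largest rise in BICR31, that of TP53INP1, with 4 of 9 higher and 1 lower. TP53INP1, a stress protein that assists p53, measured 452, 275 and 299 units with siKLF5, against 90.9, 72.9 and 54.2 units with siNC. Every siKLF5 library lay far above every siNC library. The fitted rise of TP53INP1 was 4.64-fold (log2 fold change 2.21 ± 0.292 SE, limma adjusted p = 2.28e-05). CCNG2, a cyclin tied to cell cycle arrest, measured 920, 942 and 843 units with siKLF5, against 382, 328 and 325 units with siNC. Its rise of 2.61-fold had the smallest p among the members (log2 fold change 1.39 ± 0.135 SE, limma adjusted p = 7.68e-07). PLK3, a polo-like kinase of the stress response, measured 764, 750 and 780 units with siKLF5, against 409, 419.5 and 533 units with siNC. The siKLF5 libraries were nearly level, and the rise was 1.70-fold (log2 fold change 0.76 ± 0.138 SE, limma adjusted p = 0.000509). PLK2, a related kinase that was among the most abundant members, rose 1.22-fold (log2 fold change 0.28 ± 0.0587 SE, limma adjusted p = 0.00151). PHLDA3, which restrains the growth kinase AKT, fell 1.37-fold (log2 fold change -0.45 ± 0.0999 SE, limma adjusted p = 0.00268). GADD45A, GADD45B, BTG2 and the RNA-binding protein gene ZMAT3 had log2 fold changes of 0.29, -0.25, -0.09 and 0.40 and were not called. GADD45A passed without siNC library B (limma adjusted p = 0.0175).

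**Figure D1:**
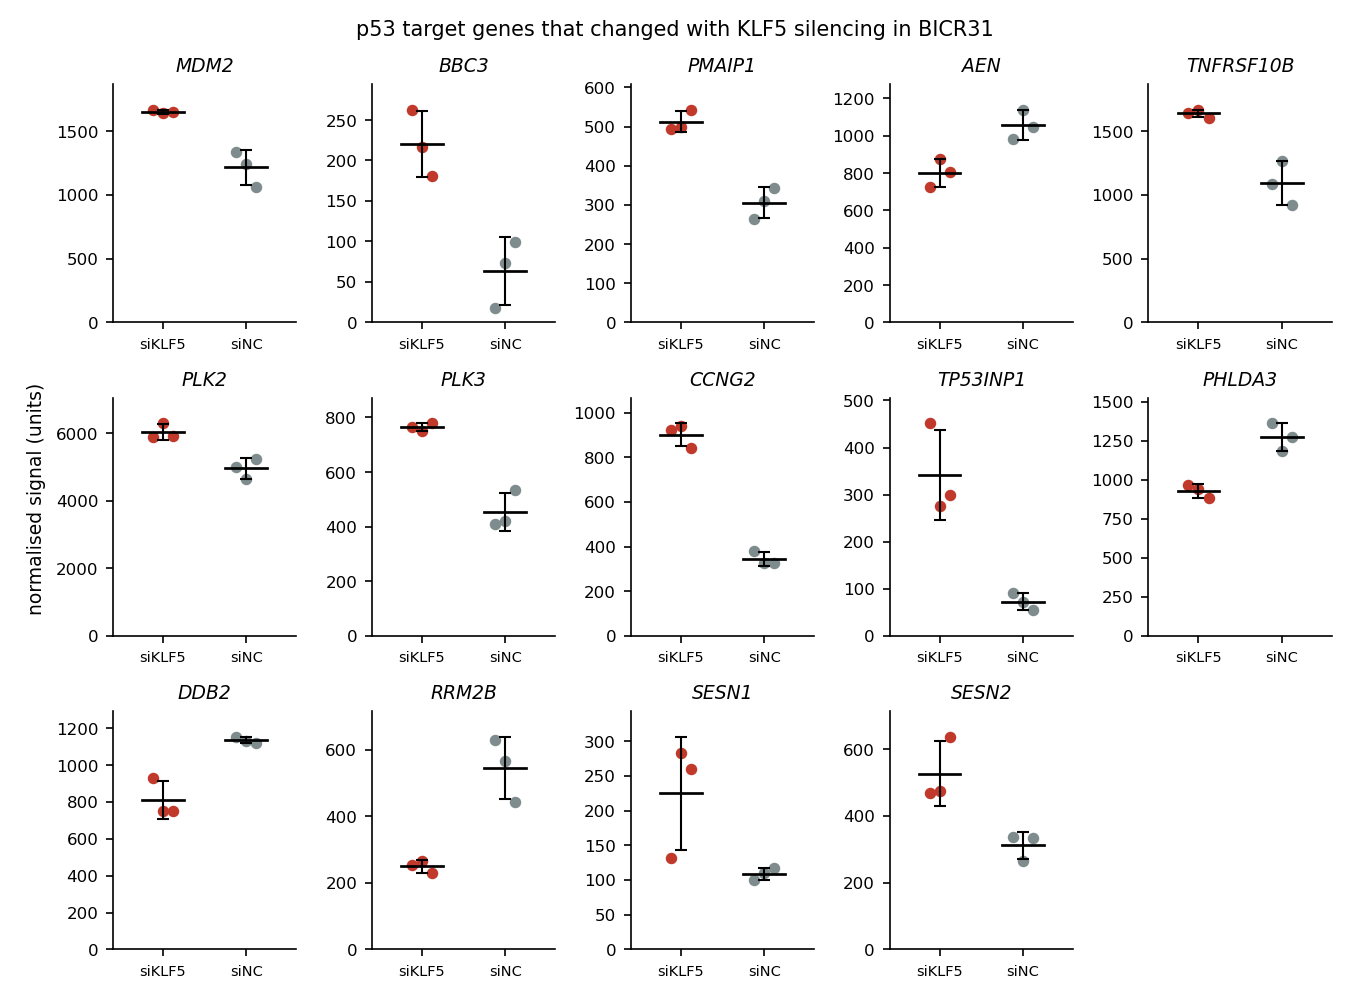
Normalised signal (units) of the 14 p53 target genes that changed with siKLF5 in BICR31, with a point per library, the mean as a line and the SD as bars (n = 3). The siKLF5 points lie above the siNC points for 10 genes, CCNG2 among them, and below for AEN, PHLDA3, DDB2 and RRM2B. The genes were picked by the test on these same values, so their separation is not a further result. Some members not called, such as TNFRSF10A and GADD45A, do not overlap either.

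Of the DNA repair and nucleotide genes, 2 fell with siKLF5 and 2 were not called. RRM2B, the p53-inducible subunit of ribonucleotide reductase, measured 255, 267 and 228 units with siKLF5, against 627, 565 and 443 units with siNC. The groups were far apart, and the fall was 2.16-fold (log2 fold change -1.11 ± 0.177 SE, limma adjusted p = 0.000152). DDB2, which recognises ultraviolet damage and whose start holds the paired decamers above, measured 928, 750 and 748 units with siKLF5, against 1155, 1131 and 1120 units with siNC. It fell 1.41-fold (log2 fold change -0.50 ± 0.112 SE, limma adjusted p = 0.00300). XPC, its partner in damage recognition, and POLH, a polymerase that copies past lesions, had log2 fold changes of -0.07 and -0.09.

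Of the redox and metabolic genes, SESN1 and SESN2 rose with siKLF5, both encoding sestrins, which restrain growth signalling under stress. SESN2 measured 468, 475 and 638 units with siKLF5, against 336, 264 and 334 units with siNC. It rose 1.68-fold without overlap between the groups (log2 fold change 0.75 ± 0.175 SE, limma adjusted p = 0.00401). SESN1 measured 131, 283 and 260 units with siKLF5, against 100, 109 and 117 units with siNC. Library A of siKLF5 lay near the siNC libraries, and the fitted rise was 1.95-fold (log2 fold change 0.96 ± 0.306 SE, limma adjusted p = 0.0272). The rise of SESN1 missed the threshold without siKLF5 library B (limma adjusted p = 0.147) or C (0.136), without siNC library A (0.0677) or B (0.0581), and with no filter on low values (0.056). FDXR had a log2 fold change of -0.60 (limma adjusted p = 0.116) and TP53I3 one of 0.40 (limma adjusted p = 0.116), and SPATA18, a mitochondrial quality gene, 1.08 (limma adjusted p = 0.0886). TP53I3 passed without siNC library C (log2 fold change 0.56, limma adjusted p = 0.0407).

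With KLF5 WT in HCC95, 6 of the 30 members tested rose and 6 fell against the empty vector, at an edgeR adjusted p below 0.05 over 12933 genes. Of all genes tested, 22.9% were called, 10.8% higher and 12.1% lower, and of the members 40.0%. The median log2 fold change was -0.16 over the members and 0.00 over all genes, and the member median was -0.003 without empty-vector library B, -0.118 without empty-vector library A and -0.123 without WT library B. The higher genes were BTG2, CCNG2, TP53INP1, DDB2, FDXR and BCL2L1, and the lower ones GADD45A, GADD45B, AEN, SESN2, PLK2 and PHLDA3. DESeq2 called 4 of these 12: BTG2 and BCL2L1 higher, GADD45A and PLK2 lower. These 4 also passed with each library left out in turn.

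Growth restrainers moved both ways with WT, 3 of 9 higher and 4 lower. BTG2, an antiproliferative gene, measured 56.6 and 50.8 CPM with WT, against 26.3 and 24.98 CPM with the empty vector. Both WT libraries lay well above both controls, a rise of 2.08-fold (log2 fold change 1.05 ± 0.141 SE, edgeR adjusted p = 9.45e-06). CCNG2 measured 11.94 and 12.02 CPM with WT, against 7.5 and 4.3 CPM with the empty vector. Its rise (log2 fold change 1.05 ± 0.285 SE, edgeR adjusted p = 0.00977) missed the threshold without WT library A (0.0536) or B (0.0578) and without empty-vector library B (0.167). TP53INP1 measured 14.5 and 13.0 CPM with WT, against 5.8 and 7.5 CPM with the empty vector. The rise of TP53INP1 (log2 fold change 1.005 ± 0.289 SE, edgeR adjusted p = 0.0145) was lost without WT library A (0.0998) and without empty-vector library A (0.0688).

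GADD45A and GADD45B, whose proteins arrest growth after damage, fell with WT. GADD45A measured 35.0 and 31.3 CPM with WT, against 67.1 and 55.6 CPM with the empty vector. This was a 1.85-fold fall with no overlap (log2 fold change -0.89 ± 0.124 SE, edgeR adjusted p = 1.49e-05). GADD45B measured 19.3 and 14.3 CPM with WT, against 27.8 and 25.2 CPM with the empty vector. Its fall (log2 fold change -0.67 ± 0.173 SE, edgeR adjusted p = 0.00709) missed the threshold without WT library B (0.15). PLK2, with its decamer upstream, fell 1.40-fold (log2 fold change -0.49 ± 0.0901 SE, edgeR adjusted p = 0.000381). PHLDA3 fell by 0.36 on the log2 scale (edgeR adjusted p = 0.0127), a call lost without WT library A (0.241) and without empty-vector library A (0.0789).

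Of the apoptosis, repair and metabolic members, AEN and SESN2 fell with WT, and BCL2L1, DDB2 and FDXR rose. AEN measured 31.3 and 37.6 CPM with WT, against 54.1 and 46.5 CPM with the empty vector. Its fall (log2 fold change -0.54 ± 0.132 SE, edgeR adjusted p = 0.00462) was lost without WT library A (0.0864). BCL2L1 rose 1.28-fold (log2 fold change 0.35 ± 0.0715 SE, edgeR adjusted p = 0.000977). DDB2 measured 31.3 and 29.1 CPM with WT, against 17.1 and 23.0 CPM with the empty vector. The controls differed by more than the WT libraries, and the rise (log2 fold change 0.55 ± 0.156 SE, edgeR adjusted p = 0.0136) was lost without WT library A (0.104) and without empty-vector library A (0.126). FDXR rose 1.36-fold (log2 fold change 0.45 ± 0.104 SE, edgeR adjusted p = 0.00297). SESN2 measured 14.5 and 17.0 CPM with WT, against 21.7 and 23.5 CPM with the empty vector. Its fall (log2 fold change -0.53 ± 0.17 SE, edgeR adjusted p = 0.0267) was lost without WT library A (0.189) or B (0.0523) and without empty-vector library B (0.14). None of the 4 members that feed back on p53 and none of the 3 death receptors tested was called with WT, where MDM2 had a log2 fold change of -0.19 (edgeR adjusted p = 0.188). The 18 members tested and not called lay between -0.39 for TNFRSF10A and 0.45 for POLH.

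With KLF5 E419Q, 5 of the 30 members tested rose and 7 fell against the same empty-vector libraries. Of all genes tested, 21.2% were called, 10.4% higher and 10.8% lower, and of the members 40.0%. The median log2 fold change was -0.01 over the members and 0.00 over all genes. Since the control libraries are shared with the WT comparison, the values are given beside those for WT and no likeness between the sets was tested. DESeq2 called 4 of the 12: DDB2 higher and GADD45B, PLK2 and PHLDA3 lower.

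DDB2 measured 37.4 and 36.9 CPM with E419Q, against the 17.1 and 23.0 CPM of the controls. It rose 1.78-fold (log2 fold change 0.83 ± 0.154 SE, edgeR adjusted p = 0.000399) and passed with each library left out. CCNG2 measured 10.1 and 13.7 CPM with E419Q, and its rise (log2 fold change 1.03 ± 0.293 SE, edgeR adjusted p = 0.0141) was lost without E419Q library B (0.2) and without empty-vector library B (0.204). TP53INP1 measured 18.5 and 9.2 CPM with E419Q, libraries that differed from each other about as much as the fitted rise. That rise (log2 fold change 0.99 ± 0.298 SE, edgeR adjusted p = 0.0203) was 0.41 without E419Q library A (edgeR adjusted p = 0.477), and 0.83 without empty-vector library A (0.0871). BTG2 measured 30.6 and 42.8 CPM with E419Q. Its rise (log2 fold change 0.50 ± 0.156 SE, edgeR adjusted p = 0.0249) was 0.23 without E419Q library B (0.476), and 0.45 without empty-vector library B (0.122). BCL2L1 rose by the smallest amount called (log2 fold change 0.21 ± 0.0736 SE, edgeR adjusted p = 0.0414). Leaving out any of the 4 libraries ended that call (edgeR adjusted p 0.0565 to 0.318), as did keeping all low counts (0.0871).

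BBC3 fell with E419Q, to 0.651 and 0.297 CPM, against 2.89 and 1.94 CPM with the empty vector. These levels rest on 3 counts with E419Q and 19 with the empty vector, a ratio of 5.04-fold lower with a 95% counting interval of 1.48 to 26.6. The edgeR adjusted p was 0.0346 and lay between 0.0713 and 0.253 with any of the 4 libraries left out. GADD45B measured 15.6 and 13.4 CPM with E419Q and fell 1.86-fold (log2 fold change -0.90 ± 0.185 SE, edgeR adjusted p = 0.00115). PLK2 measured 111.9 and 90.6 CPM with E419Q, against 165.0 and 147.9 CPM with the empty vector, a 1.58-fold fall (log2 fold change -0.66 ± 0.0939 SE, edgeR adjusted p = 1.93e-05). Both genes passed with each library left out. GADD45A measured 43.3 and 40.7 CPM with E419Q and fell 1.48-fold (log2 fold change -0.56 ± 0.122 SE, edgeR adjusted p = 0.00167). PHLDA3 fell by 0.48 on the log2 scale (edgeR adjusted p = 0.00231), a call lost without E419Q library A (0.0546). AEN fell by 0.43 (edgeR adjusted p = 0.0236), lost without E419Q library B (0.286) and without empty-vector library A (0.135). ZMAT3 fell by 0.42 (edgeR adjusted p = 0.0229), lost without E419Q library A (0.221) and without empty-vector library B (0.119). PMAIP1 and TNFRSF10B were not called, but PMAIP1 passed without empty-vector library B (log2 fold change -0.70, edgeR adjusted p = 0.0324) and TNFRSF10B without E419Q library B (-0.42, edgeR adjusted p = 0.0405). The 18 members not called with E419Q lay between log2 fold changes of -0.92 for SPATA18, on 17 counts with E419Q and 40 with the empty vector, and 0.44 for SESN1.

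**Figure D2:**
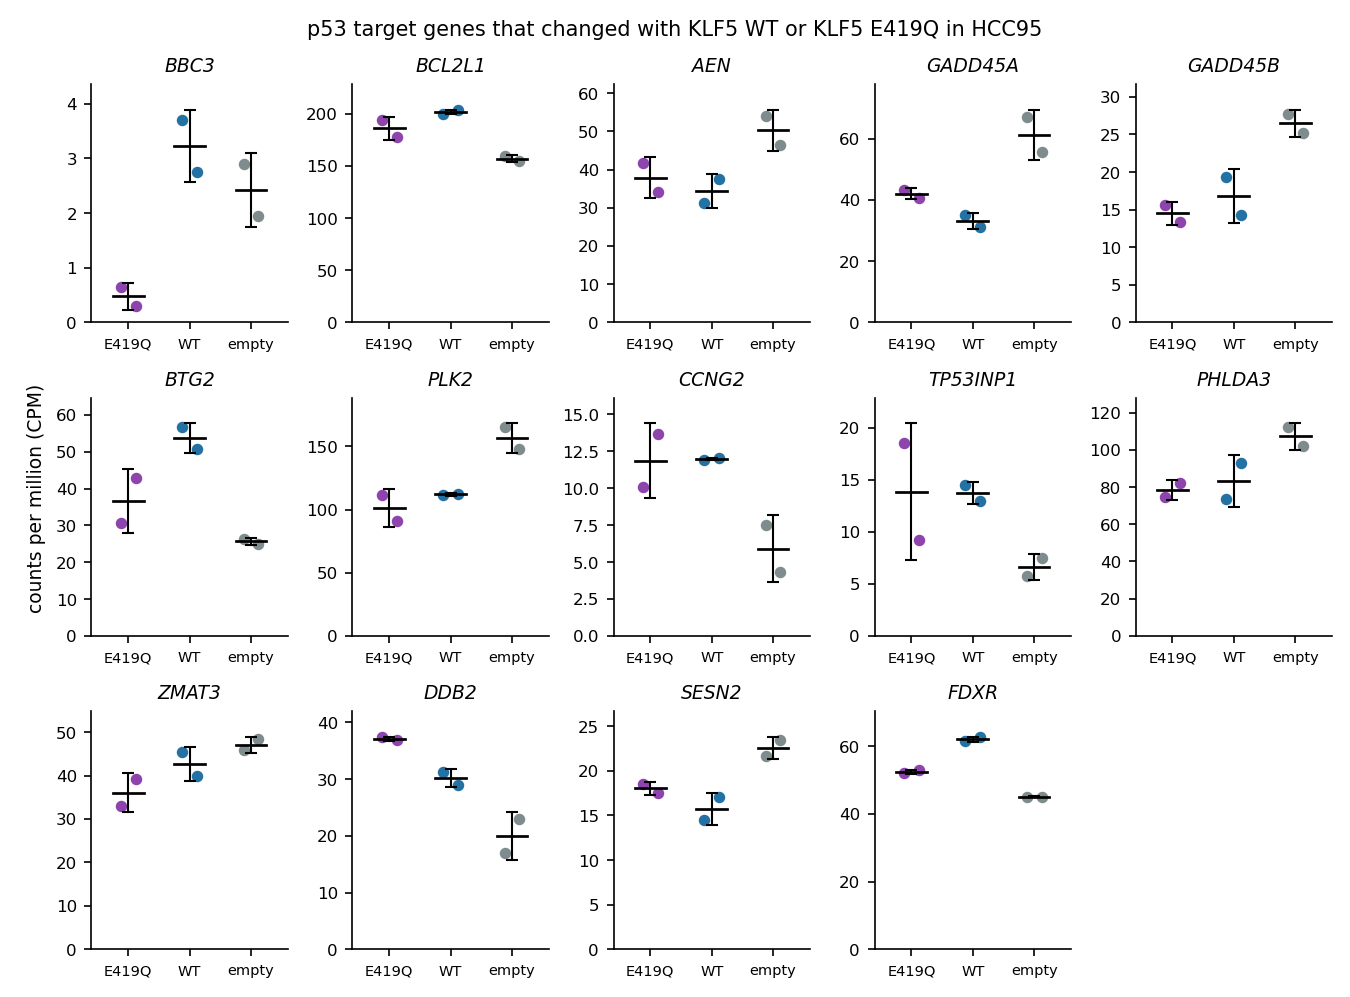
CPM (count over library total, scaled to 1000000) of the 14 p53 target genes that changed with E419Q or WT in HCC95, with a point per library, the mean as a line and the SD as bars (n = 2). BTG2 is highest with WT, and the E419Q points of BBC3, at 0.651 and 0.297 CPM, lie below the others.

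The direct test of E419Q against WT called 2 of the 30 members, both lower with E419Q. Of all genes tested, 8% were called, 4.41% higher and 3.59% lower, and of the members 6.67%. BTG2 measured 30.6 and 42.8 CPM with E419Q, against 56.6 and 50.8 CPM with WT. The groups did not overlap, and it was 1.47-fold lower with E419Q (log2 fold change -0.56 ± 0.138 SE, edgeR adjusted p = 0.0114). This call was lost without E419Q library A (edgeR adjusted p = 0.268) and without WT library A (0.138). BBC3 had 3 counts with E419Q and 24 with WT, a ratio of 6.86-fold lower with a 95% counting interval of 2.08 to 35.6. Its edgeR adjusted p was 0.0192 and missed the threshold without E419Q library A (0.103) or B (0.228) and without WT library B (0.0788). Without WT library A, and with only the 2 groups in the fit, BBC3 fell below the filter on low counts and was not tested. DESeq2 called neither gene. CCNG2 and TP53INP1 had fold changes of 0.983 (95% interval 0.678 to 1.43) and 0.987 (0.674 to 1.44). For DDB2 the fold change was 1.22 (95% interval 0.987 to 1.5) and for GADD45A 1.25 (1.03 to 1.53), neither of them called. The 28 members not called lay between log2 fold changes of -0.75 for SPATA18 and 0.45 for PPM1D.

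**Figure D3:**
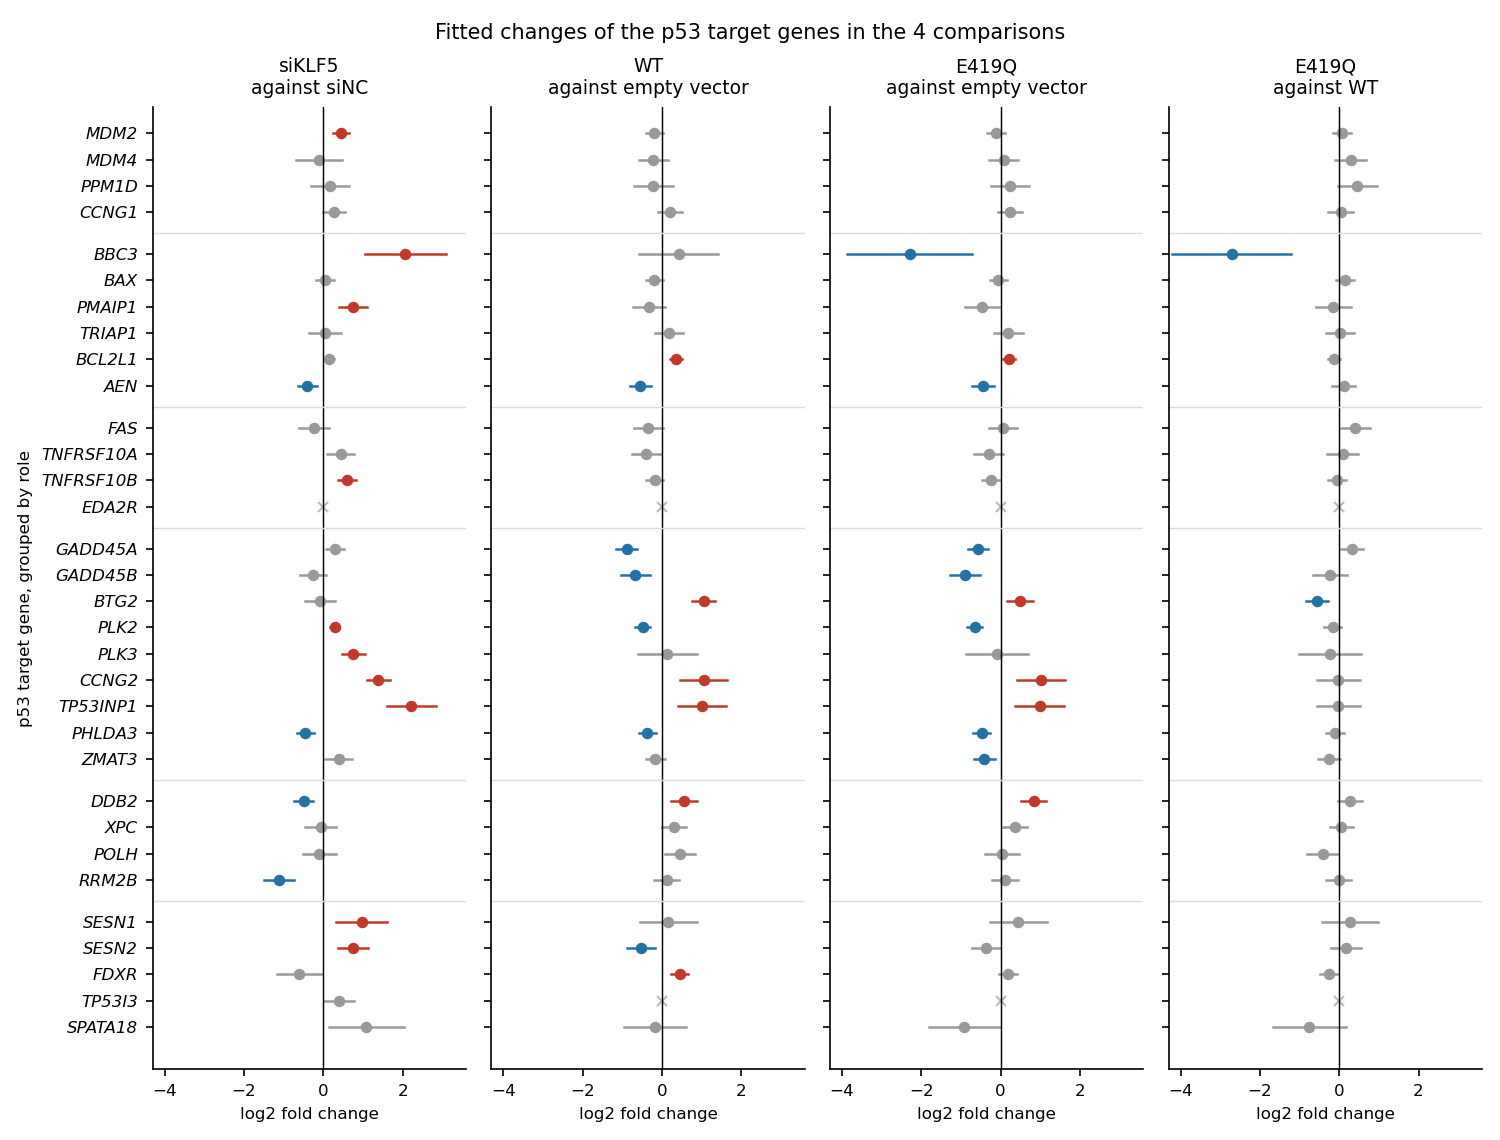
Log2 fold changes (points) with 95% intervals (lines) of the p53 target genes in the 4 comparisons, grouped by role, in red where higher, blue where lower and grey where not called, with crosses for genes not tested. CCNG2 and TP53INP1 are red in the first 3 panels, and PHLDA3 and AEN blue, while the E419Q against WT panel holds 2 coloured genes, BBC3 and BTG2.

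Silencing in BICR31 and overexpression of WT in HCC95 share no library, so their calls were set side by side. Of the members called, 7 were called in both, which is 50% of the 14 in BICR31 and 58.3% of the 12 in HCC95. Over all genes tested in both lines, the calls made in both were 32.2% of the siKLF5 calls and 41.9% of the WT calls. TP53INP1 and CCNG2 were higher, and PHLDA3 and AEN lower, in siKLF5 and in WT cells alike. SESN2 and PLK2 were higher with siKLF5 and lower with WT, and DDB2 was lower with siKLF5 and higher with WT. Of these 7, PLK2 alone kept its call under every alternative in both lines. DESeq2 did not call TP53INP1, CCNG2, PHLDA3, AEN, SESN2 or DDB2 with WT, so most of the shared calls depend on the method. Among all genes, 1208 were called in both lines, and 605 of them (50.1%) moved in opposite directions. The members' 3 of 7 opposite lies near that share. BBC3, the second largest riser with siKLF5, had a log2 fold change of 0.42 with WT (edgeR adjusted p = 0.577). RRM2B, which fell most with siKLF5, had 0.12 with WT (edgeR adjusted p = 0.611).

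**Figure D4:**
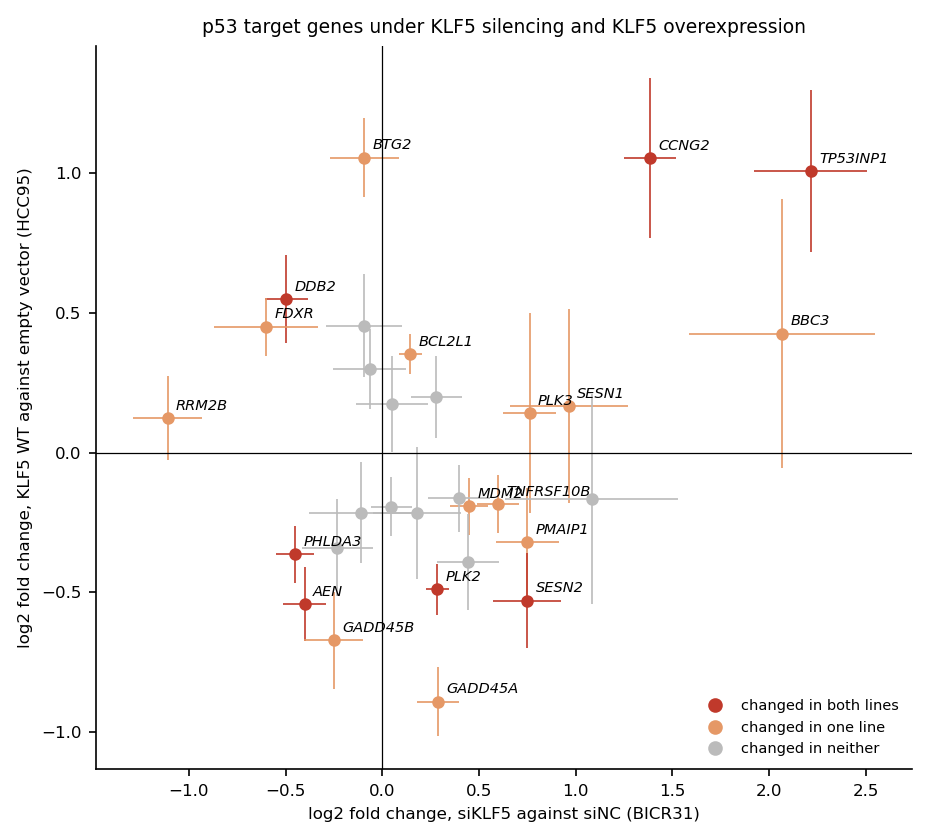
Log2 fold change of each p53 target gene with siKLF5 against siNC in BICR31 (x axis) and with WT against the empty vector in HCC95 (y axis), with SE bars, for the members tested in both. Red points changed in both lines, and TP53INP1 and CCNG2 sit at the upper right while SESN2 and PLK2 sit at the lower right.

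Other known p53 targets, from a list of 20, were counted the same way. With siKLF5, 6 of the 19 tested rose and 1 fell, 36.8% called against 26.1% of all genes. CDKN1A, which encodes the cell cycle inhibitor p21, reached 4756 ± 65.7 units with siKLF5, against 1719 ± 163 units with siNC (SD, n = 3 each; log2 fold change 1.47, limma adjusted p = 2.19e-10). GDF15, a secreted stress factor, rose with it (log2 fold change 2.21, limma adjusted p = 2.19e-07), as did TRIM22, an interferon-responsive gene (0.80, limma adjusted p = 0.000298). SFN, the epithelial checkpoint protein 14-3-3 sigma, fell (log2 fold change -0.61, limma adjusted p = 1.19e-08). With E419Q, 1 of the 17 tested rose and 8 fell, 52.9% called against 21.2% of all genes. CDKN1A fell by 0.79 on the log2 scale with E419Q (edgeR adjusted p = 9.57e-05). TGFA, a growth factor, and DRAM1, an autophagy gene, had -1.32 (edgeR adjusted p = 3.28e-06) and -1.01 (edgeR adjusted p = 3.51e-05). With WT, 3 of 17 rose and 9 fell, 70.6% called against 22.9% of all genes, and CDKN1A fell by 0.33 (edgeR adjusted p = 0.0471). TP53AIP1, a mitochondrial apoptosis gene, rose with WT (log2 fold change 1.32, edgeR adjusted p = 1.49e-06), and so did PERP, a desmosomal gene (0.33, edgeR adjusted p = 0.00027). In E419Q against WT 1 of 17 was higher and 5 were lower, against 4.41% higher and 3.59% lower of all genes. The lower ones included PERP (log2 fold change -0.42, edgeR adjusted p = 3.52e-05) and CDKN1A (-0.46, edgeR adjusted p = 0.0368).

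Upstream regulators of p53, from a list of 21, were called in both directions. With siKLF5, 5 of the 20 tested rose and 3 fell, 40% called against 26.1% of all genes. The risers included HIPK2, a kinase that phosphorylates p53 (log2 fold change 0.98, limma adjusted p = 2.73e-07), TP53BP2, a p53-binding cofactor (0.56, limma adjusted p = 0.000226), and KAT5, an acetyltransferase (0.57, limma adjusted p = 0.000357). With E419Q, 2 of 20 rose and 2 fell, 20% called, near the 21.2% of all genes. With WT, 5 rose and 2 fell, 35% called against 22.9% of all genes. ATM, the damage kinase upstream of p53, rose with E419Q (log2 fold change 0.45, edgeR adjusted p = 0.00478) and with WT (0.52, edgeR adjusted p = 0.00104). USP7, a deubiquitinase of the MDM2 and p53 axis, fell with E419Q (-0.31, edgeR adjusted p = 0.00663) and with WT (-0.32, edgeR adjusted p = 0.00406). RPL5, a ribosomal protein that binds MDM2, rose with WT (log2 fold change 0.27, edgeR adjusted p = 0.000516), and CREBBP, a coactivator, fell with E419Q (-0.43, edgeR adjusted p = 0.000481). E419Q against WT gave 0 higher and 1 lower of 20, TP63, 5% called against 8% of all genes. CDKN2A, whose ARF product blocks MDM2, was at 0 in every HCC95 library. In BICR31 it was at 0 in every siNC library and in siKLF5 libraries B and C, and at 8.22 units (1 estimated count) in siKLF5 library A.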

How the data were processed

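RNA-seq libraries were grouped by the labels. Per the submitters' processing notes, STAR aligned the reads and RSEM quantified genes on hg19, with no versions named; edgeR and limma also appear there for HCC95. For HCC95 the authors deposited expected counts from RSEM beside TPM values, per the file headers. For BICR31 the authors deposited a signal named as normalised, and the sources used here do not say how it was scaled. The step between low values put a count at 7.87 to 9.12 units. Divided by that step, 81.8% to 82.6% of values above 0 were whole within 0.02, so BICR31 counts are estimates. The floor of 3 counts lay at 1.31 to 1.56 CPM in BICR31 libraries, and in HCC95 libraries at 0.646 to 0.976 CPM. A chi-square test of counts gave 1.22 to 1.88 per degree of freedom for libraries of a group and 5.83 to 9.94 between groups. No library was therefore a copy of another, but these values do not tell separate cultures from technical repeats. Intervals on counts cover counting error only.

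The members and the lists were chosen with earlier results of these data known. BICR31: log2(signal + 1) of genes averaging at least 10 units, tested with limma 3.58.1 (trended empirical Bayes), so fold changes are on that scale. At low genes they can lie above the ratio of the group means, as for BBC3, or below it, as for SESN1 (1.95 fitted, 2.06 by means). HCC95: expected counts rounded to whole numbers, edgeR 4.0.16 quasi-likelihood fit of all 6 libraries with TMM factors and filterByExpr. R was 4.3.3, all tests two-sided with Benjamini-Hochberg adjustment over all genes tested, at 0.05, and adjusted p-values in parentheses for a left-out library are from the same tool. CPM is the count over the library total. BICR31 signal was length-scaled with the HCC95 effective lengths. DESeq2 1.42.0, other filters, scalings, pseudocounts and left-out libraries were alternatives. Genes named with every library's value were the called members, at most the 8 largest changes per comparison, and from each list at most the 4 with the smallest adjusted p, beside TP63, TP73, KLF5 and CDKN1A; a few further genes of the lists and markers are not reported here. Methods were tested on simulated data. No sequence from chromosome 8, which holds 4 members, is shown.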

Additional observations from a re-analysis of the deposited data

Results flagged for a closer look

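Both p53 target genes that differed between the mutant and the wild-type form of KLF5 in a direct test were lower with E419Q. BBC3 had a log2 fold change of -2.71 in E419Q against WT, from 3 counts against 24, and BTG2 one of -0.56. Neither was called by DESeq2 (adjusted p = 0.263 for BBC3 and 0.227 for BTG2).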

How the results depend on the processing

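With siKLF5, the members came to 9 to 11 higher and 3 to 4 lower under all 11 alternatives, and 12 of the 14 calls held in each. edgeR on estimated counts, an alternative chosen after seeing the data, gave a member median of 0.185 log2 in place of 0.279, with 10 higher and 4 lower. In HCC95 the calls were less stable: 4 of 12 held under all 9 alternatives with WT (BCL2L1, BTG2, GADD45A, PLK2), 3 of 12 with E419Q (DDB2, GADD45B, PLK2) and 0 of 2 in E419Q against WT. No call changed sign.

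DESeq2 called 2 members higher and 2 lower with WT (1137 of all genes, against 2962 with edgeR). With E419Q it called 1 higher and 3 lower (1169, against 2737), and in E419Q against WT 0 lower (467, against 1034). The E419Q member median was 0.037 with no filter on low counts and 0.04 with only the 2 groups compared in the fit, which called 1 member lower in E419Q against WT. Leaving out a library in turn gave, with WT, 3 to 5 members higher, 3 to 5 lower, 1719 to 2422 genes in all and a median of -0.152 to -0.003. With E419Q it gave 2 to 3 higher, 4 to 6 lower and 1626 to 2298 genes. In E419Q against WT it gave 0 to 1 lower and 597 to 634 genes. A lone library left in a group is assumed to vary like the others.

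Same-letter libraries did not deviate together (correlations of -0.076 to 0.016 in BICR31 and -0.035 to 0.054 in HCC95), so letters were not taken as pairs. With the replicate block, 10 members were higher and 4 lower with siKLF5, 6 and 6 with WT, 5 and 7 with E419Q, and 0 and 2 in E419Q against WT (4076, 2900, 2686 and 987 genes in all). Library totals between 1922356 and 4643792 limit genes at a few counts, such as BBC3.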
